A study of Mus musculus with 4 samples.

Results

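The genes described here are 43 genes of the type I interferon response, found in the deposited tables by their symbols. All 43 listed symbols were present, each on 1 row, among 23284 genes. Lung RNA of C57BL/6 mice had been sequenced in 4 libraries, 1 per group. The WT_asthma group were wild-type mice made allergic to house dust mite (HDM) and then exposed to it again, a model of asthma. The IL22KO_asthma group had the same exposure in mice of genotype IL22-/-, which lack the cytokine interleukin-22 (IL-22), and both lungs were taken 48 h after the last HDM dose. The PBS_Lung and IL22_Lung groups were wild-type mice that received recombinant IL-22, or phosphate-buffered saline (PBS) as its control, into the trachea 24 h before the lungs were taken. All mice shared the strain, and the ages, the number of mice behind a library and any control allele were not given in the sources used here. Il22 itself was at 0.362 FPKM in WT_asthma and listed at 0 in IL22KO_asthma. It was also listed at 0 in PBS_Lung and IL22_Lung, so this value alone does not tell the genotypes apart. Markers of lung epithelium were abundant in every library, with Sftpc, the surfactant protein C gene, at 30749 to 37820 FPKM.

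Type I interferons are secreted proteins that infected or stimulated cells release and that signal through the receptor chains IFNAR1 and IFNAR2. The kinases JAK1 and TYK2 then activate STAT proteins, which join IRF9 and bind interferon-stimulated response elements in front of many antiviral genes. The induced genes include sensors of foreign nucleic acid, enzymes that degrade RNA or block translation, and proteins that stop viruses at entry, replication or release. Some of them, such as the factor IRF7, raise interferon production further, and others, such as the protease USP18, dampen signalling. Type III interferons induce largely the same genes and act mainly on epithelium, and interferon gamma induces part of them.

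Values are FPKM, fragments scaled for transcript length and library depth, and levels of different genes are compared on that per-length scale. Differences are of log2(FPKM + 1), which understates them for genes near or below 1 FPKM. The rule for calling a gene asks for a difference of 1 or more in either direction, a 2-fold change for an abundant gene, and for an average of 1 FPKM or more in the pair. With 1 library per group there is no replicate check and no test. Counting error was estimated from fragment numbers recovered from the values, and the exact 95% intervals given for ratios cover counting error only.

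The promoters of 4 of the genes are shown first, since the response element is what the pathway acts through. They are those of the factor Irf7, the ubiquitin-like modifier Isg15 and the antiviral effector Ifit1, which had the largest differences in log2(FPKM + 1) in their role groups after HDM, and of Ifitm3, which was not called. Each runs from 250 bases before to 50 bases after a gene start, in RefSeq's GRCm38.p6 annotation, the assembly also called mm10. Capitals mark each match to the core of the interferon-stimulated response element, taken as the half-site GAAA, any 2 bases and GAAA again, searched on both strands.
Irf7 (chr7:141266375-141266674, minus strand): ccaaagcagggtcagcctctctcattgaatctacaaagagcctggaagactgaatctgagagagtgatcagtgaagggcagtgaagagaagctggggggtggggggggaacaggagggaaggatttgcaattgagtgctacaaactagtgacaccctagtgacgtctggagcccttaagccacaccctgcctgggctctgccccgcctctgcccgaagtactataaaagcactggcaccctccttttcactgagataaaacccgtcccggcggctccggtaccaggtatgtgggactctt
Isg15 (chr4:156200769-156201068, minus strand): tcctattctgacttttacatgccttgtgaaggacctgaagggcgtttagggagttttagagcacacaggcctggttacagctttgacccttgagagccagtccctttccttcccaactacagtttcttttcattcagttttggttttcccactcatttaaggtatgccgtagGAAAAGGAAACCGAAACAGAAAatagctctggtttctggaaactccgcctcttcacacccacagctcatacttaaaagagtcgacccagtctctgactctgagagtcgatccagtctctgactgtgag
Ifit1 (chr19:34640639-34640938, plus strand): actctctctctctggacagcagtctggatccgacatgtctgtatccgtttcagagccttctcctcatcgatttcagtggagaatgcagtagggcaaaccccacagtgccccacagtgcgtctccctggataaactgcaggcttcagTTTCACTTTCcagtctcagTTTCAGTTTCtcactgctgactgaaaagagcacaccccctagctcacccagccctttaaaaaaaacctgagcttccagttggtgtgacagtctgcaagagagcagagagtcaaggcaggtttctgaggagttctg
Ifitm3 (chr7:141010695-141010994, minus strand): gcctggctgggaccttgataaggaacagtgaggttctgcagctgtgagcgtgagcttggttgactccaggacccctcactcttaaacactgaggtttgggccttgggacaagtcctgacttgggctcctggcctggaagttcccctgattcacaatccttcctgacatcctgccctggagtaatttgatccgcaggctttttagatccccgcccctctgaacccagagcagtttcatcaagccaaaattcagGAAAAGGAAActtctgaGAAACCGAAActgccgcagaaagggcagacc
The Isg15 promoter held 3 matches that overlap in their half-sites and form 1 run. The Ifit1 promoter held 2 separate matches on the other strand, and the Ifitm3 promoter held 2 just after the gene start. No match to these letters lies in the Irf7 window. That window was set on a start inside the listed span of Irf7, which on this strand begins at base 141266499. It thus reaches less than 250 bases before that base, and sequence further upstream is not shown.

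Of the 43 genes, 32 had a promoter in the RefSeq table, and 14 of these 32 (43.8%) held the core motif at any of their starts. Among all 27025 genes with a promoter in that table, 3.99% held it. The matches numbered 23 in all and began at positions from -222 to 32 relative to the start, 15 of them within the 150 bases before it. Of the 20 genes with a promoter that were called lower in the knockout after HDM, 11 held the motif, and of the 12 that were not called 3 did. The median difference after HDM was -1.13 for the genes with the motif and -0.93 for those without. The palindrome TTCNNNGAA, the core of STAT binding sites, was found in 7 of the 32 promoters and in 9.55% of all genes. Of these 7, 3 were genes called lower and 4 were not, and their median difference was -0.83 against -1.15 for the promoters without it. These are matches of letters in a fixed window, and binding was not measured.

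**Figure D1:**
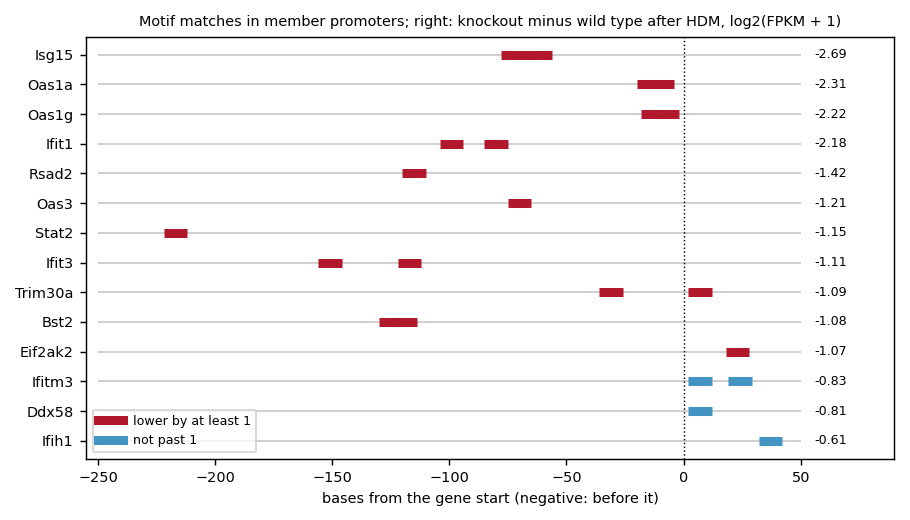
Matches to the response element core in the 14 promoters that hold it, by distance in bases from the gene start, which is base 0 (x axis). Genes are in order of their difference in log2(FPKM + 1) between knockout and wild type after HDM, printed at the right. Red marks genes called lower and blue the 3 that were not, Ifitm3, Ddx58 and Ifih1. Both starts of Trim30a are drawn on 1 line.

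After HDM, the interferon response genes were lower in the knockout library than in the wild-type library as a group. All 43 passed the filter in this pair, 27 were called lower and none higher. Of 13285 measured genes, 2.42% were called lower and 0.549% higher by the same rule. All 43 lay below 0, against 46.1% of all measured genes, and the median difference was -1.11, against 0.03 for all measured genes. The differences ran from -2.88 for Irf7 to -0.26 for Isg20. They were at or below -2 in 9 genes, between -2 and -1 in 18, between -1 and -0.5 in 13 and between -0.5 and 0 in 3. Just past the rule stood Epsti1 at -1.04, and just short of it Mx2 and Parp14, both at -0.97. Among all measured genes ordered from the lowest difference, 12 of the 43 were within the first 100. In the knockout library 5 of the genes were under 1 FPKM, and in the wild-type HDM library none was. The estimated number of fragments behind a level had a median of 742 over the 43 genes and 4 libraries and a lowest value of 21.8, for Mx1 in PBS_Lung. In bulk lung, fewer cells that express a gene and less RNA per cell cannot be told apart.

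**Figure D2:**
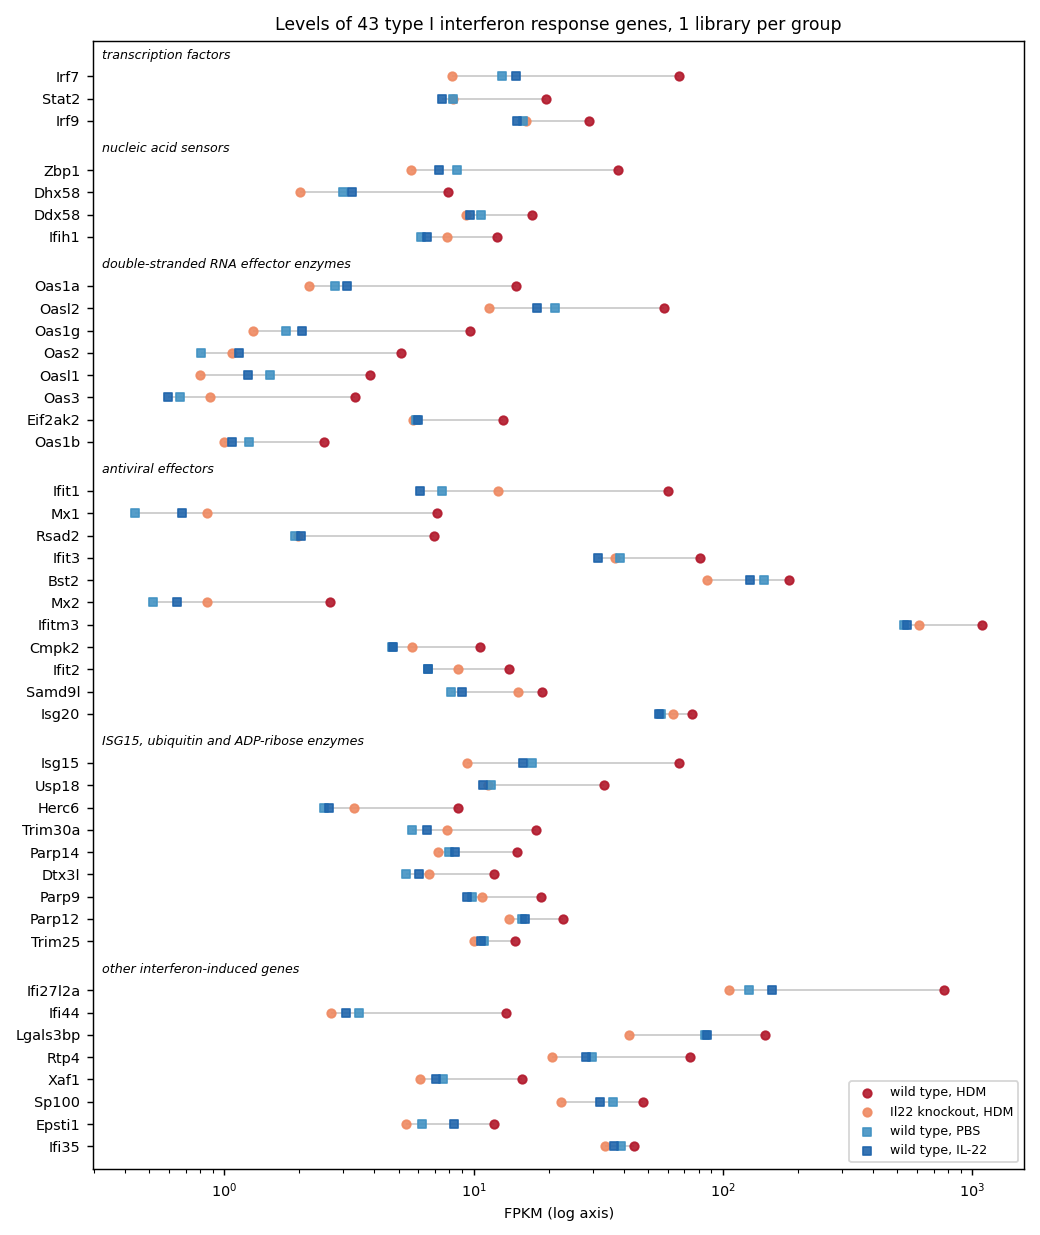
FPKM (x axis, log scale) of the 43 genes in each of the 4 libraries, 1 point per library, grouped by role and ordered by the difference after HDM. The dark red points, wild type after HDM, are the highest of the 4 for every gene, from 2.52 for Oas1b to 1096 for Ifitm3.

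**Figure D3:**
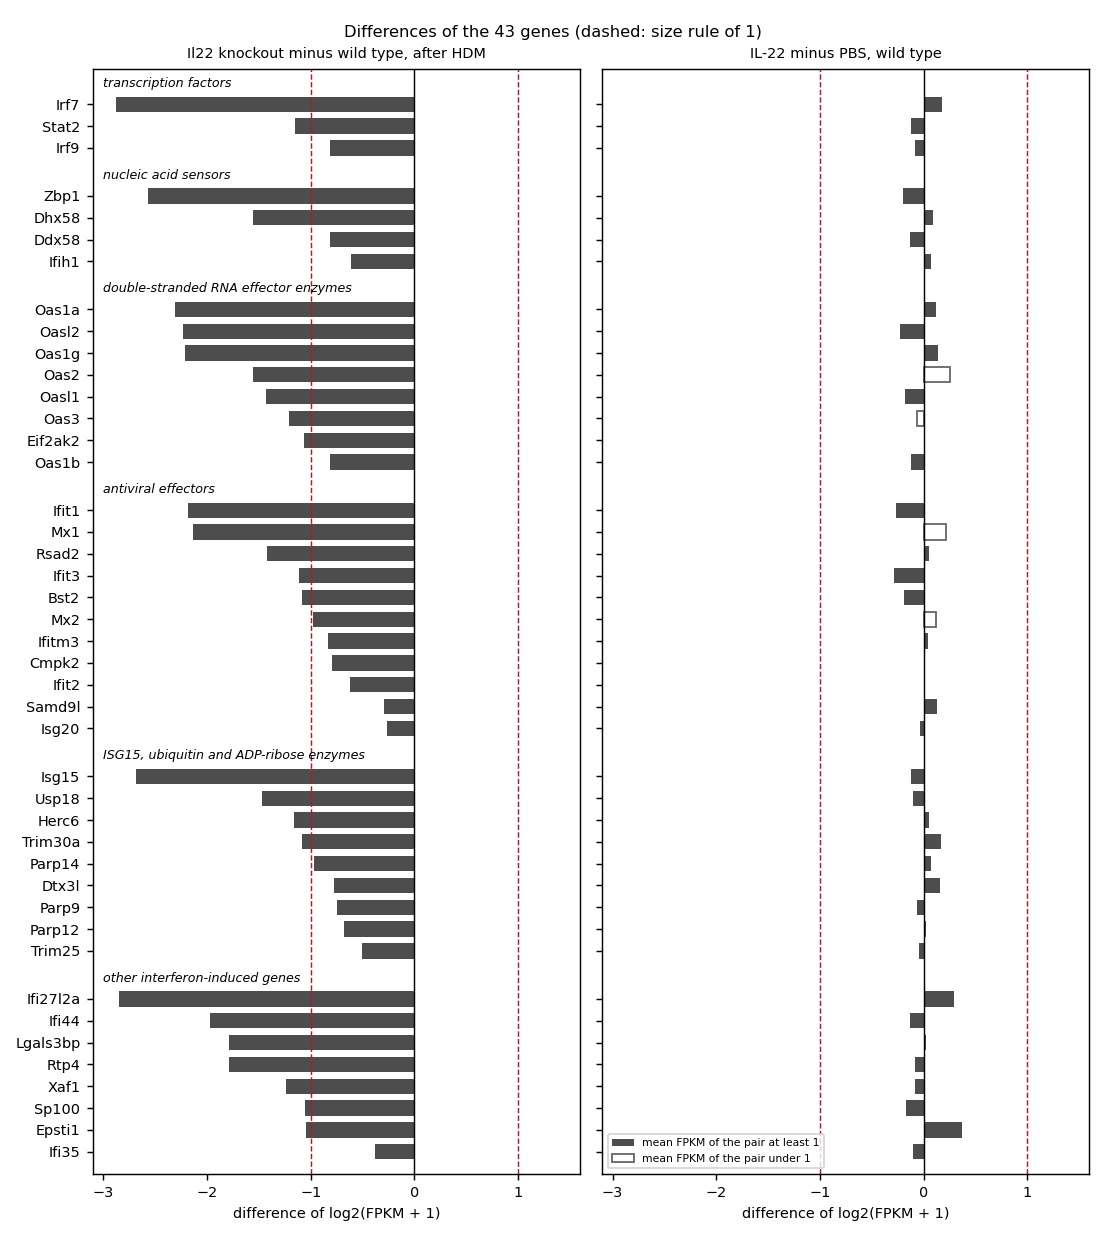
Differences in log2(FPKM + 1) for the 43 genes, knockout minus wild type after HDM (left) and IL-22 minus PBS in wild type (right), with the size rule of 1 dashed. All bars on the left point below 0 and 27 reach the rule, while those on the right stay between -0.28 and 0.37. Open bars are the 4 genes under the filter.

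The 3 transcription factors of the group were highest in wild-type lung after HDM. Irf7 (chromosome 7, 141263183 to 141266499, protein coding), which amplifies interferon production and is itself induced by interferon, was at 66.8 FPKM in WT_asthma, 8.23 in IL22KO_asthma, 13.0 in PBS_Lung and 14.8 in IL22_Lung. The wild-type HDM library stood far above the others, and the knockout was the lowest of the 4. The ratio of knockout to wild type was 0.123 (0.111 to 0.137), and the difference of -2.88 was the lowest of the 43. Stat2, a subunit of the factor that interferon activates, was at 19.6, 8.29, 8.26 and 7.497 in the same order, a difference of -1.15 between the HDM libraries. Irf9, the DNA-binding subunit of that factor, was at 29.1, 16.2, 15.8 and 14.9 and was not called, at -0.81. For Stat2 and Irf9 the knockout HDM, PBS and IL-22 libraries were close together and the wild-type HDM library alone was high. An exon of Irf7 overlaps Phrf1 on the opposite strand and one of Irf9 overlaps Rnf31 on the same strand, and these neighbours were at 8.34 and 9.25 FPKM in WT_asthma and 7.39 and 7.73 in IL22KO_asthma. Whether the libraries kept strand is not given in the sources used here.

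Of the 4 nucleic acid sensors, 2 were called lower in the knockout after HDM. Zbp1, which binds Z-form nucleic acid and can trigger cell death, was at 38.1 FPKM in WT_asthma, 5.60 in IL22KO_asthma, 8.55 in PBS_Lung and 7.30 in IL22_Lung, a difference of -2.57 after HDM. Dhx58, the RNA helicase LGP2 that tunes the other sensors, was at 7.86, 2.02, 3.003 and 3.27, a difference of -1.55. In both genes the wild-type HDM library was high and the knockout the lowest. The main RNA sensors differed less. Ddx58, the gene of RIG-I, was at 17.2, 9.33, 10.7 and 9.64 FPKM, and Ifih1, the gene of MDA5, at 12.5, 7.82, 6.14 and 6.53, with differences of -0.81 and -0.61 after HDM. Their ratios of knockout to wild type, 0.544 (0.501 to 0.590) and 0.627 (0.570 to 0.690), lay below 1 beyond counting error.

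Among the 8 genes grouped as enzymes that respond to viral RNA with 2 strands, 7 were called lower and the median difference was -1.49. Active oligoadenylate synthetases make the messenger that activates RNase L, but not every gene in the group codes for an active one. Oas1a was at 14.8 FPKM in WT_asthma, 2.19 in IL22KO_asthma, 2.77 in PBS_Lung and 3.09 in IL22_Lung, a ratio of 0.148 (0.118 to 0.183) and a difference of -2.31 between the HDM libraries. Its close relative Oas1g was at 9.71, 1.31, 1.77 and 2.04, a difference of -2.22, and reads can be shared between this pair. Oasl2 was at 57.9, 11.5, 21.2 and 17.9, a difference of -2.24, and was the most abundant of the family in each library. All of these had the same order, with wild-type HDM highest and knockout HDM lowest. Oas2 was at 5.10, 1.08, 0.804 and 1.15 FPKM, a difference of -1.56. The remaining called genes were Oasl1, known in mice to restrain Irf7 translation, at -1.43, Oas3 at -1.21, and Eif2ak2, the kinase PKR that halts translation, at -1.07. Oas1b, whose protein is truncated in C57BL/6 mice, was at 2.52, 0.995, 1.26 and 1.07 and was the only one of the 8 not called, at -0.82. Oas2, Oas3, Oas1b, Oas1g and Oas1a lie together on chromosome 5 between 120730333 and 120907544, and their differences ran from -2.31 to -0.82.

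Among the 11 antiviral effectors 5 were called lower, with a median of -0.97. Ifit1 (chromosome 19, 34640889 to 34650009), which binds foreign capped RNA, was at 60.4 FPKM in WT_asthma, 12.5 in IL22KO_asthma, 7.49 in PBS_Lung and 6.07 in IL22_Lung. Here the knockout HDM library stood between wild-type HDM and the unchallenged libraries, with a ratio to wild type of 0.207 (0.192 to 0.224) and a difference of -2.18. Its neighbours Ifit3 and Ifit2 on chromosome 19, within 34550550 to 34650009, differed less, at -1.11 and -0.62. Ifit3 was at 80.8, 36.8, 38.7 and 31.7 FPKM and Ifit2 at 13.8, 8.63, 6.54 and 6.57. The transcript I830012O16Rik, a close copy of Ifit3, was at 34.7 and 18.5 in the HDM libraries, and reads can be shared between them.

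Mx1, a GTPase that traps viral nucleocapsids and whose C57BL/6 allele is defective, was at 7.12 FPKM in WT_asthma, 0.848 in IL22KO_asthma, 0.440 in PBS_Lung and 0.678 in IL22_Lung. The wild-type HDM library alone was above 1 FPKM, and the ratio of knockout to wild type was 0.118 (0.0881 to 0.156), which is 8.40-fold. On the log2(FPKM + 1) scale this came to -2.14, because the low values are pulled together. By fold of FPKM, Mx1 thus came before Ifit1, which had 4.82-fold. Mx2 on the same chromosome was at 2.65, 0.856, 0.518 and 0.646 and fell short of the rule at -0.97, with a fold of 3.09. Rsad2, the gene of viperin, was at 6.97, 1.98, 1.92 and 2.02, a difference of -1.42. Its neighbour on chromosome 12, the nucleotide kinase gene Cmpk2, was at 10.6, 5.67, 4.71 and 4.76, a difference of -0.80. Bst2, or tetherin, which holds budding virus at the membrane and is also a marker of plasmacytoid dendritic cells, was at 184, 86.4, 147 and 129, a difference of -1.08. The PBS library was therefore nearer to wild-type HDM than the knockout was for this gene.

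The most abundant of the 43 genes, Ifitm3, which blocks viral entry from endosomes, was at 1096 FPKM in WT_asthma, 614 in IL22KO_asthma, 533 in PBS_Lung and 548 in IL22_Lung. It was not called, at -0.83, and its ratio was 0.561 (0.545 to 0.577). The smallest differences were those of Samd9l, at 18.7, 15.1, 8.12 and 8.99 FPKM, and of the exonuclease gene Isg20, at 75.5, 62.9, 56.7 and 55.4. Both were lower in the knockout beyond counting error, with ratios of 0.808 (0.762 to 0.857) and 0.833 (0.772 to 0.898). For Samd9l the knockout HDM library was nearer to wild-type HDM than to the PBS library.

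Of the 9 genes of ISG15 conjugation, ubiquitin ligation and ADP-ribosylation, 4 were called lower, with a median of -0.97. Isg15 (chromosome 4, 156199424 to 156200818), the ubiquitin-like protein that is attached to viral and host proteins, was at 66.4 FPKM in WT_asthma, 9.44 in IL22KO_asthma, 17.1 in PBS_Lung and 15.7 in IL22_Lung. The knockout was the lowest of the 4, with a ratio to wild type of 0.142 (0.118 to 0.170) and a difference of -2.69. Usp18, the protease that removes ISG15 and blocks IFNAR2 signalling, was at 33.3, 11.4, 11.8 and 10.9, a difference of -1.47. Herc6, the ISG15 ligase of mice, was at 8.67, 3.32, 2.52 and 2.64, a difference of -1.16, and Trim30a at 17.7, 7.81, 5.68 and 6.50, a difference of -1.09. The activating enzyme gene Uba7, at 9.19 and 7.54 FPKM in the HDM libraries, and the conjugating enzyme gene Ube2l6, at 67.2 and 49.8, are outside the 43 and were not called, at -0.25 and -0.42. The ubiquitin ligase gene Trim25, which acts on RIG-I, was not called, at 14.6, 10.01, 11.04 and 10.7 and a difference of -0.50. Parp9, Parp12, Parp14 and Dtx3l, a ligase that works as a complex with PARP9, were between -0.97 and -0.68. Dtx3l and Parp9 have exons on chromosome 16 that overlap on opposite strands, and their differences were close, at -0.78 and -0.75.

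Among the 8 other interferon-induced genes, 7 were called lower, with a median of -1.51. Ifi27l2a (chromosome 12, 103433873 to 103443680), a small membrane protein gene strongly induced by interferon, was at 768 FPKM in WT_asthma, 106 in IL22KO_asthma, 128 in PBS_Lung and 157 in IL22_Lung. Its difference after HDM was -2.85, with a ratio of 0.138 (0.127 to 0.148). Lgals3bp, a secreted glycoprotein that binds galectins, was at 148, 41.9, 85.0 and 86.3, a difference of -1.79. Rtp4, a chaperone-like transmembrane protein gene, was at 73.6, 20.6, 29.9 and 28.2, also a difference of -1.79, and Ifi44 was at 13.4, 2.67, 3.49 and 3.09, a difference of -1.97. For all of these the knockout was the lowest of the 4 libraries. Xaf1, which promotes cell death, Sp100, a nuclear body protein gene, and Epsti1 were between -1.24 and -1.04. Ifi35 was not called, at 44.0, 33.6, 39.2 and 36.4 FPKM and a difference of -0.38.

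**Figure D4:**
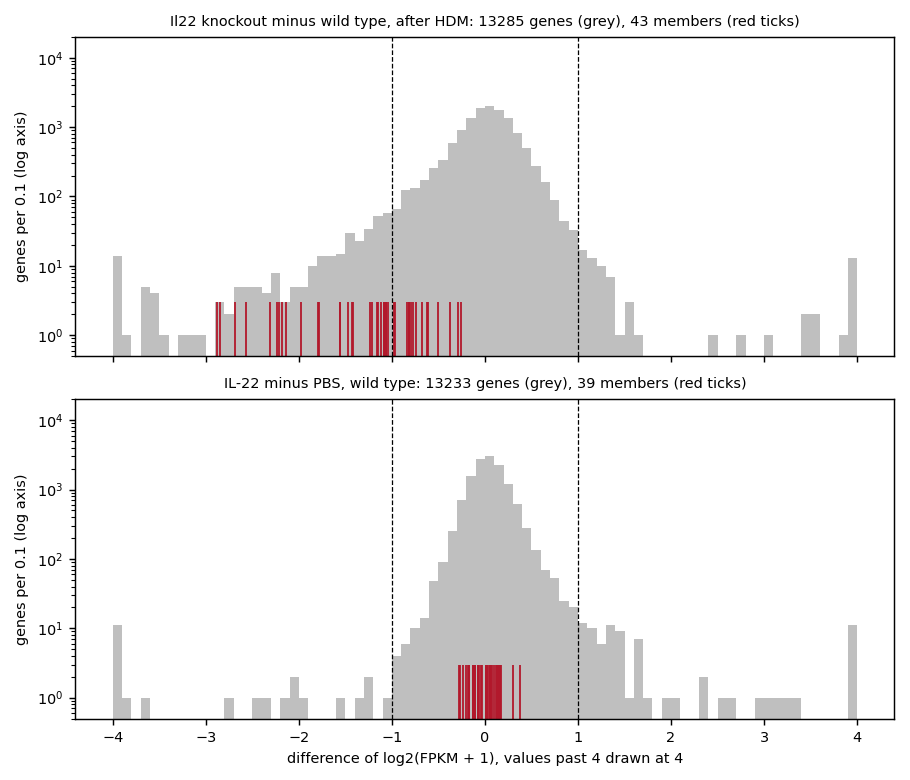
Number of genes (y axis, log scale) per 0.1 of the difference in log2(FPKM + 1) for all measured genes, with the interferon response genes as red ticks. After HDM the ticks run from -2.88 to -0.26 (upper panel), and with IL-22 in unchallenged lung they lie between -0.28 and 0.37 around the middle of all genes (lower panel).

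Airway IL-22 in wild-type lung without allergen was not accompanied by a difference of this size. Of the 43 genes, 39 had a mean of at least 1 FPKM in the pair, and none was called higher or lower, where 0.597% of 13233 measured genes were called higher and 0.189% lower. Of these 39 genes 20 lay below 0 and 19 above, against 41.4% of all measured genes below 0. Their median was -0.03, and that of all measured genes 0.04. Over all 43 without the filter, 21 lay below and 22 above 0, with a median of 0.01. None of the 39 was past 1.5-fold in either direction, which 2.42% of all measured genes were. The 4 genes under the filter were Oas2, Oas3, Mx1 and Mx2.

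Within this narrow range some genes differed beyond counting error, in both directions. Epsti1 was at 6.19 FPKM in PBS_Lung and 8.31 in IL22_Lung, a ratio of 1.34 (1.13 to 1.59) and a difference of 0.37, the highest of the measured members. Ifi27l2a had a ratio of 1.23 (1.12 to 1.36). The lowest were Ifit3, with a ratio of 0.819 (0.757 to 0.885) and a difference of -0.28, and Ifit1, with 0.811 (0.704 to 0.935) and -0.26. Of the 43 genes, 7 had an interval above 1 and 6 an interval below 1, and spread between mice was not measured. Irf7 was among the former, at 1.14 (1.01 to 1.28), and Oasl2, Bst2, Sp100 and Ddx58 were among the latter. Oas2, which was under the filter, also had an interval above 1, with a ratio of 1.42 (1.03 to 1.98). The share of all measured genes with an interval above or below 1 was not computed, so the 2 counts cannot be read as particular to these genes. These intervals hold for the deposited scaling and were not recomputed under another. The median of all measured genes was 0.002 with median ratio scaling and 0.13 with common total scaling, in place of 0.04. Whether an interval with a bound near 1, such as that of Irf7, leaves out 1 therefore depends on the scaling.

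The 4 libraries can also be set side by side, although the HDM pair and the PBS and IL-22 pair come from different tables, and a shared normalization is not stated. The level was highest in WT_asthma for 43 of 43 genes, against 24.7% of 13317 genes with a mean of at least 1 FPKM over the 4 libraries. The lowest level was in IL22KO_asthma for 23 genes, in PBS_Lung for 12 and in IL22_Lung for 8. The shares of all genes lowest in each library were not computed, so these counts have no background. The median ratio of the levels to those in PBS_Lung was 2.31 for WT_asthma and 0.907 for IL22KO_asthma, where all genes had 0.982 and 0.978. The knockout HDM level was above the PBS level in 18 of 43 genes, against 47.2% of all genes. These 18 were 9 of the 11 antiviral effectors, 4 of the 9 ISG15, ubiquitin and ADP-ribose enzymes, 2 of the 3 transcription factors and 1 of the 4 sensors. The rest were 2 of the 8 genes grouped as RNA-activated enzymes, with none of the 8 other induced genes. Some were close to the PBS level, such as Stat2 with a ratio of 1.003, Irf9 with 1.02 and Rsad2 with 1.03. The ratio of knockout HDM to PBS levels ran from 0.493 for Lgals3bp to 1.93 for Mx1, and Samd9l was at 1.87 and Ifit1 at 1.67.

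Other parts of the interferon pathway were read from lists of known genes. Of the 18 type I and III interferon genes in the tables, 16 were listed at 0 in all 4 libraries, Ifnb1 among them. For Ifnb1, 3 fragments would have given 0.220 FPKM in WT_asthma and 0.201 in IL22KO_asthma, and it was listed at 0 in both, so a level under this value cannot be told from none. Ifnab was at 0.0784 FPKM in IL22KO_asthma and at 0 elsewhere, and Ifnz was at 0.0205 to 0.0349 in all 4, each from under 2 fragments. The genes of the receptor chains and kinases differed little between the HDM libraries. Ifnar1 was at 10.7 FPKM in WT_asthma and 11.9 in IL22KO_asthma, Ifnar2 at 82.8 and 70.0, Jak1 at 37.0 and 37.9 and Tyk2 at 5.43 and 6.06. None of these receptor and kinase genes was called, and their differences lay between -0.24 for Ifnar2 and 0.14 for Ifnar1.

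Of 15 measured sensors, adaptors, kinases and factors that induce interferon, the only call was 1 lower gene, and the median was -0.23. This was Tmem173, the gene of the DNA pathway adaptor STING, at 13.2 FPKM in WT_asthma and 5.97 in IL22KO_asthma. Irf5 was at 14.2 and 7.26, Tlr8 at 2.43 and 1.36 and Myd88, the adaptor of most Toll-like receptors, at 24.6 and 16.8. Irf3, the factor that starts interferon production, was at 21.5 and 24.1. Among 6 negative regulators of receptor signalling Socs1, itself interferon-induced, was called lower, at 5.19 and 1.799, and the others lay between -0.52 and 0.24. Of 47 measured interferon-induced genes outside the 43, 12 were called lower, none was called higher, 44 lay below 0 and the median was -0.52. The chemokine gene Cxcl10 had a difference of -2.43, the apolipoprotein L genes Apol9a and Apol9b -1.94 and -1.83, and the DNA-binding protein gene Ifi204 -1.88. This list includes genes that interferon gamma induces, and Ifng was at 0.159 and 0.0728 FPKM. None of the pathway lists had a called gene with IL-22 in unchallenged lung. Cxcl10 and Ifi204 had the largest differences there, 0.65 and 0.60.

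**Figure D5:**
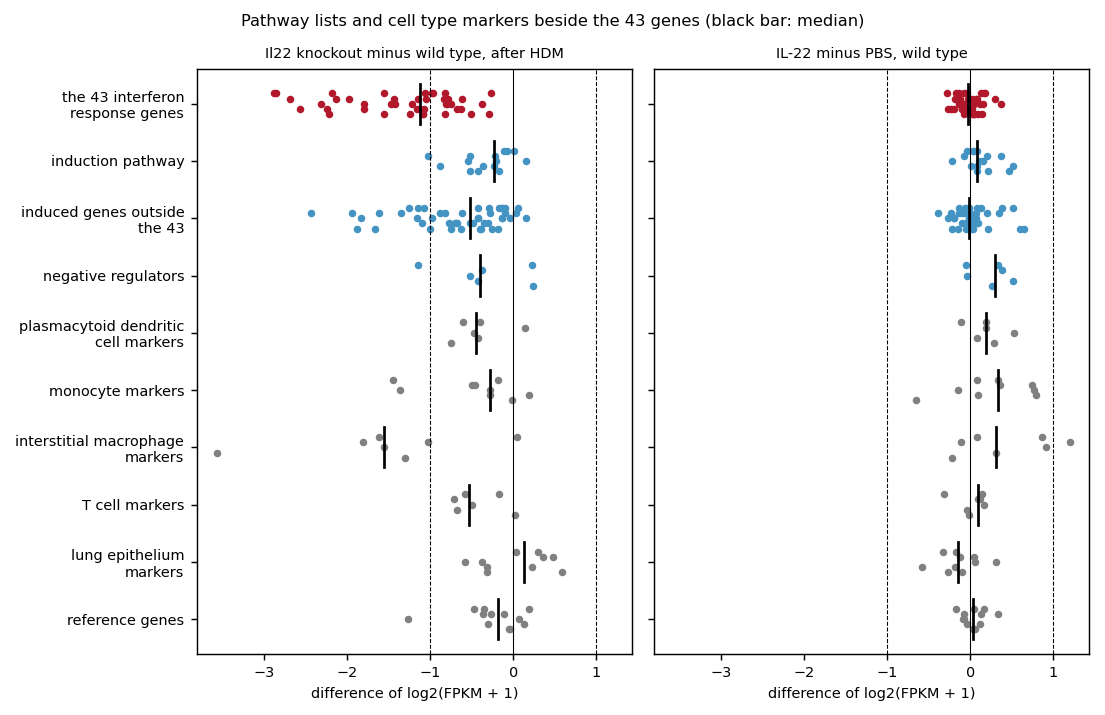
Differences in log2(FPKM + 1) (x axis) for the 43 genes, 3 further pathway lists and 6 marker or reference lists, 1 point per measured gene and a black bar at each median. After HDM (left) the medians are -1.11 for the 43 genes, -0.52 for induced genes outside them and -1.56 for interstitial macrophage markers, and with IL-22 (right) they are -0.03, -0.01 and 0.31.

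Markers of some cell types moved with the HDM comparison, and their part in the interferon result was not tested. Of 7 interstitial macrophage markers 6 were called lower, their median was -1.56, and their summed level was 923 FPKM in WT_asthma and 596 in IL22KO_asthma. Apoe, the most abundant and the only one above 0, was at 433 and 446, and the other 6 summed to 490 against 149.96. Of 9 monocyte markers 2 were called lower, with a median of -0.28 and a summed level of 212 against 160. Of 9 alveolar macrophage markers 2 were called lower and 1 higher, with a median of -0.13 and a summed level of 2888 against 708. Most of that sum was Chi3l3, at 2438 and 367 FPKM, and the other 8 markers summed to 450.5 against 341, with Marco, Fabp1 and Siglec5 higher in the knockout library. Plasmacytoid dendritic cells, which release much interferon, had 6 measured markers of 9, none called, with a median of -0.45 and a summed level of 83.9 against 67.9. Their marker Siglech was at 0.654 and 0.543 FPKM. Cox6a2, the most abundant of the 9 and the only one above 0, was at 31.2 and 34.6. The other 8 summed to 52.7 against 33.3. T cell markers had a median of -0.54 with none called, at a summed 49.3 against 34.2. Medians were -0.04 for B cells, 0.18 for NK cells, 0.13 for lung epithelium and 0.24 for endothelium, with none called. Neutrophil markers had 1 lower and 2 higher (median 0.41), erythroid markers 4 of 5 higher (median 1.17), and all 7 heart muscle markers were lower (median -1.42). None of the 92 markers was at 0 in any library. Among 12 reference genes 1 was called lower, B2m, which interferons induce, at 6535 and 2723 FPKM, and their median was -0.19.

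With IL-22 in unchallenged lung, 1 of 7 interstitial macrophage markers was called higher, with a median of 0.31 and a summed level of 1153 FPKM against 948 with PBS, or 425 against 262 without Apoe. Monocyte markers had a median of 0.33, but a summed level of 216 FPKM against 224 with PBS, with Nr4a1 at 54.1 against 85.7. Plasmacytoid dendritic cell markers had a median of 0.19 and a summed level of 152 against 131. None of these monocyte and dendritic cell markers was called, and 1 of 7 heart muscle markers was called higher, with a median of 0.58. The summed level of the 43 interferon response genes was 1336 FPKM against 1328, while after HDM it was 3190 in wild type and 1247 in the knockout.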

How the data were processed

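Whole lung RNA of 4 groups was analysed, 1 library each, with groups taken from the sample titles. The deposited values have no unit in their headers and were read as FPKM because the submitters' processing notes name Cufflinks 2.2.1, beside CASAVA 1.8.2, TopHat2 and mm10. Their settings, the strand and how libraries were scaled were not given in the sources used here. The authors deposited each pair as a separate table, and the tables were joined here by accession and symbol. Date-like entries stood in place of 25 symbols, which were restored from the accessions, and rows of a symbol were added. No fitted test was possible, so differences of log2(FPKM + 1), with a pseudocount of 1, were called at a size of 1 where the pair averaged 1 FPKM or more. The alternatives were a pseudocount of 0.1, a median ratio or common total scaling, no filter or a mean of at least 5 FPKM, the highest row per symbol and a size rule of 1.5-fold.

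The libraries held an estimated 24.8 (WT_asthma), 27.1 (IL22KO_asthma), 19.9 (PBS_Lung) and 28.7 (IL22_Lung) M fragments (M for 1000000). These are the numbers under which most low values became whole fragments, with GENCODE M21 transcript lengths less 200 bases. Between 65.2 and 68.1% of 1444 to 1507 low values then lay within 0.1 of a whole number, where an even spread gives 20%. Intervals of ratios are exact binomial (Clopper-Pearson, 95%) and cover counting error only.

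The members, their 6 role groups and the pathway and marker lists were chosen with earlier results of these data known. In each role group the members with the largest differences after HDM are given in full, in pathway lists up to 4 genes, and Ifnb1, Ifnar1, Ifnar2, Jak1 and Tyk2 in any case. For the receptor and kinase list no count or median is reported here. Irf3, Uba7, Ube2l6, Siglech, Cox6a2, B2m and the named macrophage markers were named after their values were seen. So were the other members given in full and the gene copies. Sums of a list without its most abundant gene were added after seeing the data. Calls and depths were tested on simulated data. The work used matplotlib 3.10.9, scipy 1.17.1, pandas 2.3.3 and numpy 2.4.6 under Python 3.11.15.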

Additional observations from a re-analysis of the deposited data

How the results depend on the processing

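After HDM, 21 to 39 of the 43 genes were lower and none higher under the alternatives run. The lowest counts came with a mean of at least 5 FPKM (21 of 35 measured) and without the 10 genes whose exons overlap another gene (21 of 33), and the highest with the size rule of 1.5-fold. Among all genes the share called lower was 2.13% with a mean of at least 5 FPKM and 6.41% with the 1.5-fold rule. It was 3.67% with a pseudocount of 0.1, 2.68% with common total scaling and 1.43% with no filter. The median difference was -1.26 with a pseudocount of 0.1 instead of -1.11, by construction of that scale, which adds Mx2, Oas1b and Parp14 to the lower genes. Scaling to a common total added Mx2. With IL-22 in unchallenged lung no gene was called under any alternative run, and the median became 0.087 after scaling to a common total, which moved the median of all genes to 0.13. The sign of that median changed with the scaling, with 13 of 40 measured genes then below 0, and 25 of 39 under median ratio scaling. The alternatives without the 3 genes of pseudogene biotype (Mx1, Mx2 and Oas1b) or with overlapping exons were chosen after seeing the data. No paired analysis was possible because each group had 1 library. For the same reason no library could be left out.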

Other observations

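Across the 43 genes, the difference between knockout and wild type after HDM had no clear relation to how abundant a gene was in PBS lung (Pearson r = 0.05, Spearman rho = 0.11 over 43 genes). Across the 39 genes measured in both pairs, the difference after HDM had no clear relation to that between IL-22 and PBS on the same scale (Pearson r = -0.01, Spearman rho = 0.08). These are descriptions over genes that share the same libraries, with no p-value.

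Close copies of member genes outside the list differed in their values after HDM. Trim30d, beside Trim30a, was at 7.89 FPKM in WT_asthma and 3.72 in IL22KO_asthma, a difference of -0.91. Ifi27l2b, a copy of Ifi27l2a, was at 1.08 and 0.110 FPKM. Gm14446, taken as a copy of Ifit1, was at 4.40 and 4.59, a difference of 0.05, and so did not share the difference of -2.18 of Ifit1.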
